A study of Mus musculus with 9 samples.

Results

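The CC chemokines examined here are 10 genes: Ccl2, Ccl3, Ccl4, Ccl5, Ccl6, Ccl7, Ccl8, Ccl9, Ccl12 and Ccl24. They were chosen by symbol from the 25468 genes of the deposited table of bulk RNA sequencing of mouse hearts, with earlier results of these data known. The table lists 29 gene entries of CC chemokines in all, so 19 others are set beside the members only briefly. The level of a gene is the sum of the FPKM of its transcripts (fragments scaled to the length of the transcript and the size of the library). Ccl24 had 2 transcripts in the file and each other member had 1.

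The 9 libraries came from hearts of wild-type mice. Of these, 3 were taken 7 days after surgery that caused an acute myocardial infarction (day 7), 3 were taken 1 day after it (day 1), and 3 came from sham-operated mice (sham). Strain, sex and age of the animals, the part of the heart sampled and the day on which sham hearts were collected were not stated in the sources used here, and the labels name no deletion, transgene or drug in these groups. The same sham libraries served both times, so the comparisons of day 7 with sham and of day 1 with sham are not independent, nor are both independent of day 7 with day 1. Hearts of mice without Hdc, which the series also describes, were not analysed here.

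CC chemokines are small secreted proteins named for a pair of adjacent cysteines. They bind receptors coupled to G proteins on white blood cells and draw those cells along a gradient into tissue. After heart muscle dies, Ccl2 and its relatives are known for drawing blood monocytes, which carry the receptor CCR2, into the damaged wall. Ccl2, Ccl7 and Ccl12 are ligands of CCR2 in the mouse, Ccl3, Ccl5, Ccl6 and Ccl9 of CCR1, mouse Ccl8 mainly of CCR8, and Ccl24 of the eosinophil receptor CCR3.

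All members except Ccl24 lie on chromosome 11. In the gene order of RefSeq, Ccl2, Ccl7, Ccl11, Ccl12, Ccl8 and Ccl1 follow each other with 0 other protein-coding genes between them. After 25 more protein-coding genes come Ccl5, Ccl9, Ccl6, Ccl3 and Ccl4, again with 0 between them, and Ccl24 lies next to Ccl26 on chromosome 5. RefSeq start regions (250 bases before and 50 after the gene start, build GRCm38.p6) were at hand for 5 of the 10 members: Ccl3, Ccl6, Ccl8, Ccl9 and Ccl12. The regions of 2 pairs of neighbours are shown. Ccl12 and Ccl8 are neighbours whose ratio varied widely between libraries, and Ccl9 and Ccl6 are neighbours whose levels kept almost a fixed ratio, as the values further on show. Ccl12 is at chr11:82101595-82101894 on the plus strand, Ccl8 at chr11:82114935-82115234 on the plus strand, Ccl9 at chr11:83578587-83578886 on the minus strand and Ccl6 at chr11:83593038-83593337 on the minus strand. Each is written 5′ to 3′ in the direction of its gene, and capitals mark matches to the TATA box, the AP-1 motif and the NF-kB motif.
Ccl12: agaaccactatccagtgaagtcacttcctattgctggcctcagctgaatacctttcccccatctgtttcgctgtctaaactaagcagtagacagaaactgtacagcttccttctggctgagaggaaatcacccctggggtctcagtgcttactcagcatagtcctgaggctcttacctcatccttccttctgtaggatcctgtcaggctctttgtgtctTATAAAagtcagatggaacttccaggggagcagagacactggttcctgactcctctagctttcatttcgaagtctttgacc
Ccl8: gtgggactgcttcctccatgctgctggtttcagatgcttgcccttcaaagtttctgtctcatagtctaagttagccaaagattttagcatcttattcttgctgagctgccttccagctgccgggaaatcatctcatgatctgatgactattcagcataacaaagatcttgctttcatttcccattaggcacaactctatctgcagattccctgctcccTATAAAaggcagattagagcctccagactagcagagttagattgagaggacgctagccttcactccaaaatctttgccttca
Ccl9: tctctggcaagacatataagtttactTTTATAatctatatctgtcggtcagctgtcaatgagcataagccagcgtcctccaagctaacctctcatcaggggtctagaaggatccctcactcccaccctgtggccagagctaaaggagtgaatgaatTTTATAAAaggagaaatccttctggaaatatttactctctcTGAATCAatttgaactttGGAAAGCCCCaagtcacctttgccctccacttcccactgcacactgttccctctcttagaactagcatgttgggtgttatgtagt
Ccl6: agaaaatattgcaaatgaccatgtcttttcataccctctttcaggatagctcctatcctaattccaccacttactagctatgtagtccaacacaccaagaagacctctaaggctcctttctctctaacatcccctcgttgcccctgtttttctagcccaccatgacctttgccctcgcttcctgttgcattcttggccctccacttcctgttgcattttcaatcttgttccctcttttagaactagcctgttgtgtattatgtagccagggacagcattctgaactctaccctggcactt

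The 6 motifs searched, on both strands, were TATAAA for the TATA box, TGANTCA for AP-1, TTNCNNAA for C/EBP, TTCNNNGAA for STAT factors, and by name the 10-base motifs of interferon response elements and of NF-kB. Of 32851 mouse start regions of the same length, 13.6% held the TATA letters, 7.81% the AP-1 letters, 40.7% the C/EBP letters, 8.3% the STAT letters, 3.44% the interferon motif and 4.51% the NF-kB motif. Ccl12 and Ccl8 each had TATAAA once, at positions -31 and -32 from the gene start. Ccl9 had those letters at positions -224, -94 and -92, the last 2 overlapping on opposite strands, and it also had the AP-1 letters at -53, the NF-kB motif at -35 and the C/EBP letters at -75 and -38, the last overlapping the NF-kB match. Ccl3 had only the C/EBP letters, at -100, and the Ccl6 region held none of the 6. Aligned end to end, the regions of Ccl8 and Ccl12 were 54.9% identical, the highest of the 10 pairs, and those of Ccl6 and Ccl9 were 47% identical with a longest shared run of 13 bases, gccctccacttcc. These matches describe letters and were not tested against the levels.

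Similar sequence could blur the levels of related genes, so the overlap of the members was looked up. In the GENCODE M21 annotation of GRCm38, another build than the authors' GRCm39, no exon of a member overlaps an exon of another gene. For 9 members, 0 words of 50 bases in their transcripts were shared with a transcript of another gene. Ccl9 shared 59 of 2996 such words, or 1.97%. The closest pairs of coding sequences were Ccl3 and Ccl4 (66.3% identical), Ccl6 and Ccl9 (64.8%) and Ccl8 and Ccl12 (64.4%).

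The libraries were not all alike before any comparison. Their FPKM summed to between 521643 and 792632, of which 24.4% to 39.8% were on mitochondrially encoded genes, and the number of reads behind a value is unknown. Day 1 replicate 2 and sham replicate 1 stood apart in the sum of 8 markers of airway and alveolar cells, 1878 and 203 FPKM, against 17.3 or less in the other libraries. In sham replicate 1 this was Scgb1a1 (172 FPKM) and Scgb3a2 (29.4 FPKM), with each other marker of the list at 0.485 FPKM or less. Day 1 replicate 2 had 780.2 FPKM of Scgb1a1 and 7.43 of Scgb3a2, but also 728 of Sftpc and 145 of Sftpa1. Day 7 replicate 2 stood apart in 11 markers of T and natural killer cells, which summed to 108 FPKM, against 30.3 or less elsewhere. Most of this was Cd3d, Cd3e, Cd3g, Cd4, Cd8a and Cd8b1, each at 7.68 to 22 FPKM there and 3.72 or less elsewhere. Gzma, Gzmb, Nkg7 and Ncr1 of the same list were each higher in another library. Klrd1 was at 0.929 FPKM there, against 0.856 or less elsewhere. Fat cell markers summed to 544 FPKM in sham replicate 1, against 141 or less elsewhere. Atrial muscle markers ran from 775 to 5405 FPKM at day 7, 282 to 11057 at day 1 and 229 to 2677 in sham hearts, and skeletal muscle markers from 2452 to 3081, 792 to 2319 and 683 to 2253 FPKM in the same groups. Acta1 made up most of the skeletal sums, which hide that day 7 replicate 2 stood apart in other genes of that list. It had 59.8 FPKM of Myh4 (0.411 or less elsewhere), 79.3 of Mylpf (1.42 or less), 74.4 of Tnnt3 (5.87 or less) and 11 of Actn3 (0.291 or less). Myh1 and Myh2 were at 0.733 FPKM or less in every library. Fibroblast markers summed to 3849 to 5304 FPKM at day 7, 1577 to 2102 at day 1 and 1084 to 1367 in sham hearts, with no overlap of the groups. Heart muscle markers were high throughout and summed to 15529 to 22129 FPKM at day 7, 17640 to 23586 at day 1 and 29688 to 33647 in sham hearts.

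At day 1, CC chemokine RNA was far more abundant than in sham hearts. The 10 members summed to 409.6, 629 and 440.3 FPKM in day 1 hearts, against 142, 82.8 and 143 FPKM in sham hearts, which is 4.02 times as much by the means. Ccl2, Ccl3, Ccl4, Ccl6, Ccl7, Ccl9 and Ccl12 rose, which is 7 of the 10 members, where 13.4% of all 13514 genes tested were called higher in the same comparison. No member was called lower with limma, where 14.7% of all genes were, and 0 were lower at an unadjusted p under 0.05. All day 1 libraries lay above all sham libraries for those 7 members, as they did for 22.5% of all genes, and lay below them for 0 members, against 25.1% of all genes. The median log2 fold change of the members was 1.78, against -0.01 over all genes tested.

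By day 7 most of this rise was gone, with much spread between libraries. Day 7 libraries had 109, 275 and 124 FPKM in all over the 10 members. The mean was 169.5 ± 91.6 FPKM at day 7, 493 ± 119 at day 1 and 123 ± 34.5 in sham hearts (SD, n = 3 each). Day 7 replicate 2 alone lay above the sham range, and the ratio of the day 7 to the sham mean was 1.38 (0.47 as a log2 ratio), against a log2 ratio of -0.07 without that library. Compared with day 1, 6 of 10 members fell, where 2.14% of all genes were called lower: Ccl2, Ccl7, Ccl12, Ccl3, Ccl4 and Ccl9. The count was 3 without day 7 replicate 3, day 1 replicate 2, day 1 replicate 3 or sham replicate 1, each left out alone. Those fits called 89, 62, 244 and 150 of all genes lower, in that order, against 289 with all libraries. All day 7 libraries lay below all day 1 libraries for those 6 and for Ccl6, 7 of 10 members against 14.1% of all genes, and above them for 0, against 13.1% of all genes. No member was called higher with limma (2.71% of all genes were; 0 members at an unadjusted p under 0.05), and the median log2 fold change was -1.43, against -0.01 over all genes.

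Against sham, only 1 of 10 members was called at day 7: Ccl12 fell, where 17.3% of all genes were called lower. None was called higher, where 15.7% of all genes were, and at an unadjusted p under 0.05 the counts were 2 lower and 0 higher. The median log2 fold change of the members was 0.16, against -0.02 over all genes. All day 7 libraries lay below all sham libraries for 1 member, Ccl12, as for 28.8% of all genes, and above them for 0 members, where 25.0% of all genes did. These counts do not show that the other 9 members had returned to the sham level, since the 95% interval reached 1.67 for Ccl6, 3.05 for Ccl8, 1.21 for Ccl9 and 1.46 for Ccl24, and -1.23 for Ccl5. In bulk tissue, a change in the number of cells that make a chemokine and a change in its RNA per cell cannot be told apart.

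**Figure D1:**
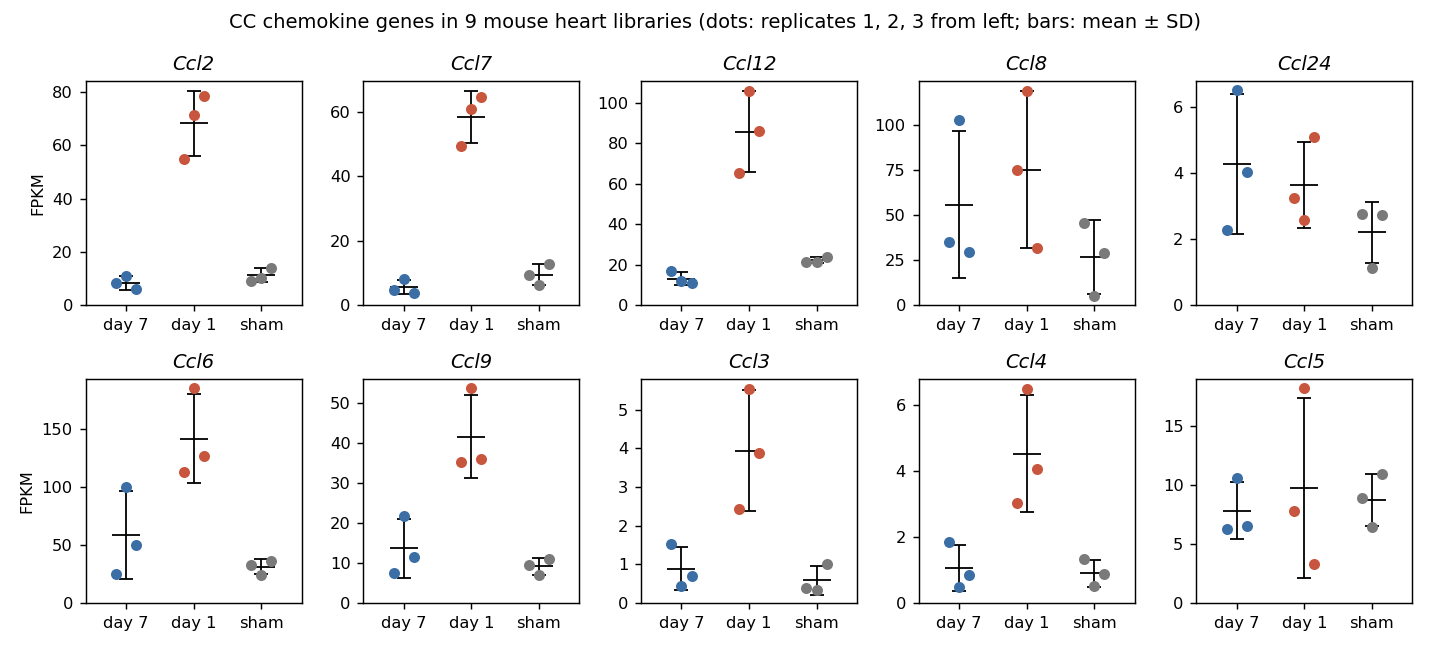
FPKM (linear axis) of each CC chemokine in every library, with a point per library and bars for the mean ± SD of each group (day 7, day 1, sham). Day 1 points stand clear above the others for Ccl2, Ccl7 and Ccl12, while those of Ccl8, Ccl5 and Ccl24 mix with the other groups.

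Ccl2, Ccl7 and Ccl12, the CCR2 ligands that attract monocytes, had the smallest p-values of the family at day 1 against sham and at day 7 against day 1. Ccl2 (ENSMUSG00000035385, also called MCP-1) was at 8.2, 11 and 6 FPKM at day 7, at 54.9, 71.5 and 78.5 FPKM at day 1, and at 9.02, 10.4 and 14.1 FPKM in sham hearts. Every day 1 library was above every other library, and the day 7 and sham libraries overlapped. The day 1 mean of 68.3 ± 12.1 FPKM was 6.11 times the sham mean of 11.2 ± 2.66 FPKM (SD, n = 3 each). Ccl2 rose by 2.52 ± 0.23 (SE, adjusted p = 0.00108) at day 1 against sham, as a log2 fold change of FPKM + 1. At day 7 the value against day 1 was -2.90 ± 0.23 (adjusted p = 0.00186), and against sham it was -0.38 (adjusted p = 0.22).

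Ccl7 (ENSMUSG00000035373, also called MCP-3) had 4.69, 8.2 and 3.93 FPKM at day 7, 49.3, 61 and 64.7 FPKM at day 1, and 9.39, 6.18 and 12.7 FPKM in sham hearts. Again the day 1 libraries were apart and the other groups overlapped. Ccl7 rose at day 1 by 2.55 ± 0.28 against sham (adjusted p = 0.00184), a day 1 mean 6.2 times the sham mean. At day 7 it was lower than at day 1 by a log2 fold change of -3.21 ± 0.28 (adjusted p = 0.00186), the largest fall of the family and rank 13 by size among 13514 genes. Against sham the day 7 value was -0.66 ± 0.28 (adjusted p = 0.0974), which became -0.93 with an adjusted p of 0.0363 without day 7 replicate 2.

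Ccl12 (ENSMUSG00000035352, a mouse CCR2 ligand also called MCP-5) was the only member called in all 3 comparisons. It had 16.7, 12 and 10.9 FPKM at day 7, 65.6, 106 and 86.1 FPKM at day 1, and 21.6, 21.2 and 24 FPKM in sham hearts. The 3 groups did not overlap: day 1 was highest, sham came next and day 7 was lowest. The rise at day 1 against sham was 1.87 ± 0.19 (adjusted p = 0.00141), and day 7 fell by 2.61 ± 0.19 on the log2 scale against day 1 (adjusted p = 0.00186), rank 1 by p among all genes in that comparison, with Ccl2 at rank 2 and Ccl7 at rank 8. Below sham, the day 7 value was -0.73 ± 0.19 (adjusted p = 0.0224), or 0.593 times the sham mean. That last call was lost in 7 of 23 alternative analyses: it was -0.40 (adjusted p = 0.237) when libraries were rescaled to a common total, and the adjusted p over all alternatives was between 0.00978 and 0.237.

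For these 3 genes the calls between day 1 and sham, and between day 7 and day 1, held in all 23 alternatives. Without the 2 libraries high in airway markers, day 1 against sham gave 2.35 for Ccl2, 2.54 for Ccl7 and 1.69 for Ccl12, with adjusted p-values of 0.0221, 0.0376 and 0.0238.

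**Figure D2:**
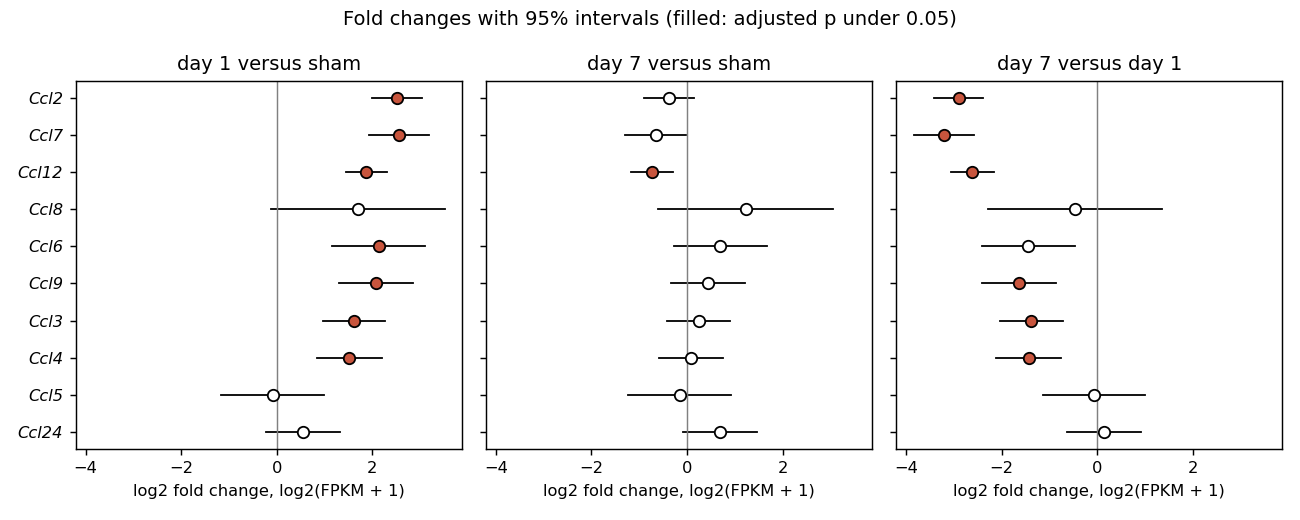
Log2 fold change of FPKM + 1 of each member in the 3 comparisons, with the 95% confidence interval from limma and filled points for calls at an adjusted p under 0.05. Between day 1 and sham, 7 members lie right of 0 with filled points, and between day 7 and day 1, 6 lie left of it.

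Ccl6 and Ccl9, neighbouring genes for CCR1 ligands made by myeloid cells of rodents, rose together at day 1. Ccl6 (ENSMUSG00000018927) was at 25.3, 100.3 and 50.2 FPKM at day 7, at 113, 185 and 127 FPKM at day 1, where it had the highest FPKM of the family in each library, and at 33, 24.4 and 36.5 FPKM in sham hearts. Day 7 replicate 2 lay far above the sham range and replicate 1 within it. Ccl6 rose at day 1 by 2.13 ± 0.43 (adjusted p = 0.00998), to 4.53 times the sham mean. Day 7 libraries were all below day 1 libraries, yet -1.44 ± 0.43 missed the threshold (adjusted p = 0.0942). Without day 7 replicate 2 the value was -1.93 (adjusted p = 0.0295). Day 7 against sham gave 0.69 ± 0.43 (adjusted p = 0.239), and 1.18 (adjusted p = 0.0434) without day 7 replicate 1.

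Ccl9 (ENSMUSG00000019122) had 7.49, 21.9 and 11.6 FPKM at day 7, 35.2, 53.8 and 36.1 FPKM at day 1, and 9.48, 6.91 and 11.1 FPKM in sham hearts. Its order of libraries was almost that of Ccl6, with the day 1 libraries apart and day 7 replicate 2 next. It rose by 2.07 ± 0.34 at day 1 against sham (adjusted p = 0.00543). Day 7 fell by 1.63 ± 0.34 on the log2 scale against day 1 (adjusted p = 0.0348), a call lost in 12 of 23 alternatives, where the adjusted p ran from 0.0145 to 0.167. Against sham, day 7 was at 0.43 ± 0.34 (adjusted p = 0.35).

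Ccl3 and Ccl4 (MIP-1 alpha and MIP-1 beta), which activated macrophages make quickly, were scarce in every group but showed the same shape. Ccl3 (ENSMUSG00000000982) was at 1.53, 0.45 and 0.688 FPKM at day 7, at 2.42, 5.53 and 3.87 FPKM at day 1, and at 0.398, 0.344 and 1.01 FPKM in sham hearts. Ccl4 (ENSMUSG00000018930) was at 1.84, 0.484 and 0.861 FPKM at day 7, at 3.02, 6.5 and 4.08 FPKM at day 1, and at 1.32, 0.504 and 0.892 FPKM in sham hearts. For both, every day 1 library was above every other library. The day 1 means were 6.75 times the sham mean for Ccl3 and 5 times for Ccl4, and the log2 fold changes, which the added 1 FPKM makes smaller at such levels, were 1.62 ± 0.29 (adjusted p = 0.00698) and 1.51 ± 0.30 (adjusted p = 0.00915). Day 7 against day 1 gave -1.38 ± 0.29 for Ccl3 (adjusted p = 0.0354) and -1.43 ± 0.30 for Ccl4 (adjusted p = 0.0348). Each of these last calls was lost in 12 of 22 alternatives, with adjusted p-values of 0.0206 to 0.161 for Ccl3 and 0.0168 to 0.14 for Ccl4. Day 7 and sham differed by 0.24 for Ccl3 (adjusted p = 0.545) and 0.08 for Ccl4 (adjusted p = 0.853).

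The day 1 calls of Ccl3, Ccl4, Ccl6 and Ccl9 were lost when both libraries high in airway markers were left out together. Then 3 of 10 members were called higher instead of 7. Calls fell over all genes too: of 13514 genes, 256 were called higher instead of 1817, and 146 lower instead of 1993. The values of Ccl3, Ccl4, Ccl6 and Ccl9 stayed at 1.31, 1.42, 1.97 and 1.91, with adjusted p-values of 0.0752, 0.0608, 0.0893 and 0.0628. The 7 listed alveolar macrophage markers summed to 53.8 FPKM in day 1 replicate 2, 24.2 and 27.7 FPKM in the other day 1 libraries, and 9.99 to 19.1 FPKM in sham hearts. Most of these day 1 sums was Chil3 (22.6, against 8.08 and 9.19 FPKM) and Car4 (20.6, against 14.8 and 16.6 FPKM). Ear2 was at 8.55, against 0.455 and 0.894 FPKM. Marco, Fabp1, Siglecf and Krt79 were each at 0.991 FPKM or less at day 1, so the sums alone do not show alveolar macrophages. Day 1 replicate 2 was also the highest of its group for Ccl3, Ccl4, Ccl5, Ccl6, Ccl8, Ccl9 and Ccl12, and the part of lung cells in these levels was not tested.

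Ccl5, Ccl8 and Ccl24 were not called in any of the 3 comparisons. Ccl5 (ENSMUSG00000035042, also called RANTES, a product of T cells, natural killer cells and platelets) was at 6.27, 10.6 and 6.55 FPKM at day 7, at 7.76, 18.2 and 3.29 FPKM at day 1, and at 8.87, 6.44 and 10.9 FPKM in sham hearts. Both the highest and the lowest of the 9 libraries were of day 1. The day 1 value against sham was -0.09 ± 0.47 (adjusted p = 0.902) with a 95% interval of -1.17 to 0.98, and log2 changes within that interval could not be told from 0. Day 7 gave -0.15 against sham (adjusted p = 0.824) and -0.06 against day 1 (adjusted p = 0.954). T and natural killer cell markers summed to 30.3 FPKM in day 1 replicate 2, the library highest for Ccl5. They summed to 4.75 FPKM in day 1 replicate 3, the lowest for it. Day 7 replicate 2 had 108 FPKM of them with 10.6 FPKM of Ccl5. That sum was mostly of Cd3, Cd4 and Cd8 genes, while Gzma, Gzmb, Nkg7 and Ncr1 were each higher in another library. A link of Ccl5 to these markers was not tested.

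Ccl8 (ENSMUSG00000009185, also called MCP-2, made by tissue macrophages) had the largest SE of the members, 0.80 in each comparison. It was at 35.1, 103 and 29.4 FPKM at day 7, at 75.2, 119 and 31.9 FPKM at day 1, and at 46, 5.27 and 29.3 FPKM in sham hearts. The ranges of the groups overlapped in all 3 comparisons. Day 1 against sham was 1.69 ± 0.80 (adjusted p = 0.146, 95% interval -0.13 to 3.51), and day 7 against sham was 1.23 ± 0.80 (adjusted p = 0.261). Between day 7 and day 1 the value was -0.46 ± 0.80 (adjusted p = 0.773).

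Ccl24 (ENSMUSG00000004814, also called eotaxin-2, a macrophage product that attracts eosinophils) was at 2.28, 6.52 and 4.04 FPKM at day 7, at 3.26, 2.58 and 5.09 FPKM at day 1, and at 2.75, 1.14 and 2.72 FPKM in sham hearts. All groups overlapped. The log2 fold changes were 0.69 ± 0.34 at day 7 against sham (adjusted p = 0.148), 0.55 ± 0.34 at day 1 against sham (adjusted p = 0.26) and 0.14 at day 7 against day 1 (adjusted p = 0.845). With libraries rescaled to a common total, day 7 against sham was 1.02 (adjusted p = 0.0353), while the median of all genes itself moved to 0.30 in that scale.

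The make-up of the family differed between groups, as a description with no test of its own. By means, Ccl8 and Ccl6 took 31.1% ± 7.01 and 33.3% ± 9.04 of the summed FPKM at day 7, 14.8% ± 6.58 and 28.6% ± 0.944 at day 1, and 19.8% ± 13 and 26.1% ± 3.13 in sham hearts (SD, n = 3 each). Ccl2 took 5.45% ± 1.82 at day 7, 14.2% ± 3.31 at day 1 and 9.58% ± 3.09 in sham hearts. Ccl7 took 3.48% ± 0.704, 12.1% ± 2.51 and 7.64% ± 1.12 at day 7, day 1 and in sham hearts. The shares of Ccl7 did not overlap between any 2 groups. Ccl12 took 9.48% ± 5.48 at day 7, 17.5% ± 1.85 at day 1 and 19.2% ± 5.64 in sham hearts, and its share in day 7 replicate 2 was the lowest at 4.36%. Ccl5 took 4.95% ± 0.983 at day 7, 1.84% ± 1.07 at day 1 and 7.22% ± 0.845 in sham hearts, again with no overlap between groups. Ccl24 took 2.57% ± 0.607, 0.787% ± 0.372 and 1.74% ± 0.315 in the same order, also with no overlap. The FPKM of Ccl5 and of Ccl24 did overlap between all groups. A share depends on the levels of the other members as well. Ccl9 took 8.06% ± 1.25 at day 7, 8.44% ± 0.211 at day 1 and 7.59% ± 0.843 in sham hearts, the narrowest span of these members in relative terms.

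**Figure D3:**
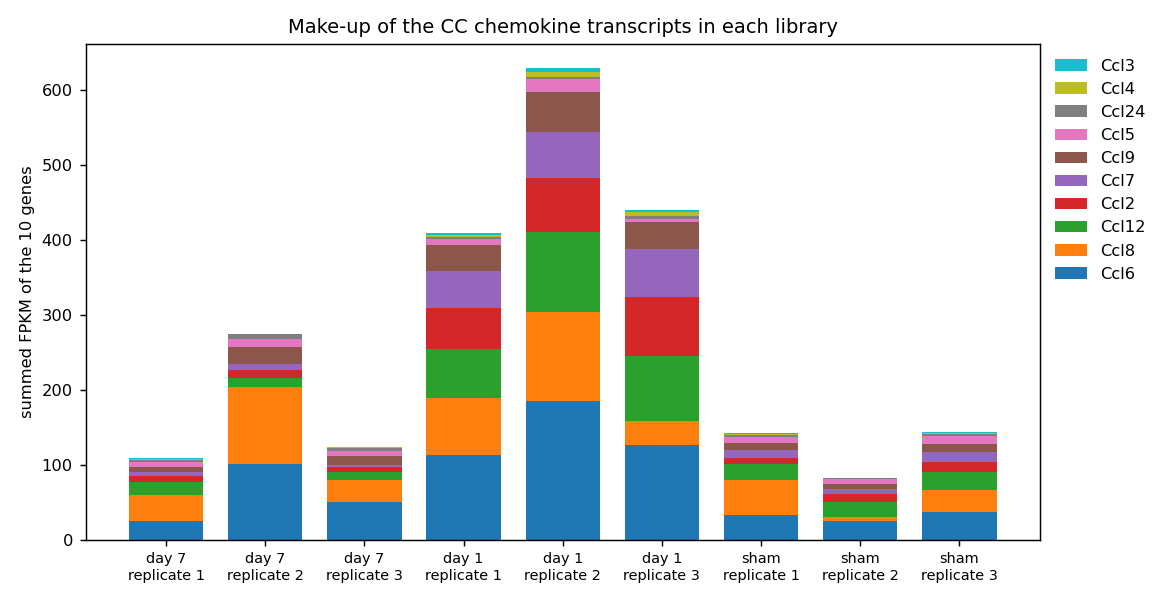
Summed FPKM of the 10 CC chemokines in each library (day 7, day 1, sham), as a bar stacked by member. The day 1 bars reach 409.6 to 629 FPKM, and the segments of Ccl2, Ccl7 and Ccl12 are taller there than in any day 7 or sham bar, while that of Ccl8 differs between libraries of a group.

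Pairs of neighbours kept their ratio to very different degrees. Ccl6 over Ccl9 stayed between 3.21 and 4.57 in the 9 libraries, a span of 1.42 times, while the level of Ccl6 spanned 7.6 times and that of Ccl9 7.79 times. Ccl2 over Ccl7 stayed between 0.96 and 1.75, a span of 1.82 times, over levels that spanned 13.1 and 16.4 times. By contrast, Ccl12 over its neighbour Ccl8 ran from 0.116 to 4.03, a span of 34.8 times. Ccl4 over Ccl3 spanned 3.76 times, from 0.885 to 3.33, at levels near 1 FPKM. Groups are part of these spans, so the ratios describe these 9 libraries and say nothing of a shared control.

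**Figure D4:**
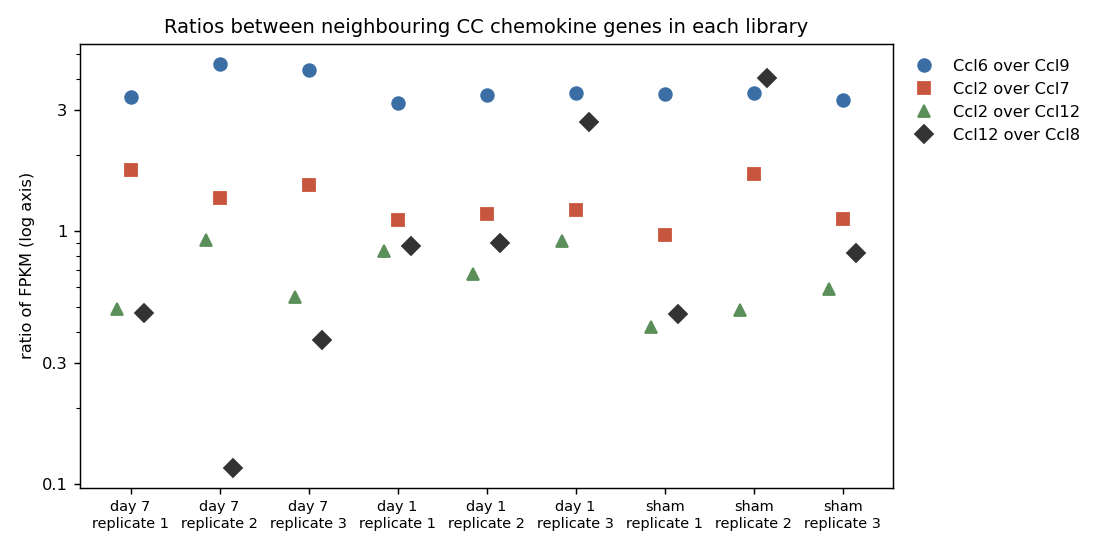
Ratio of FPKM between CC chemokines of the same cluster on chromosome 11, on a log axis, in each library (day 7, day 1, sham), with a marker shape per pair of genes. Ccl6 over Ccl9 lies in a narrow band from 3.21 to 4.57, and Ccl12 over Ccl8 runs from 0.116 to 4.03.

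Over the 9 libraries, the levels on the log2(FPKM + 1) scale correlated most between Ccl2 and Ccl7 (Pearson r = 0.99), Ccl6 and Ccl9 (r = 0.99), Ccl2 and Ccl12 (r = 0.97), Ccl3 and Ccl4 (r = 0.96) and Ccl7 and Ccl12 (r = 0.96). Ccl5 had r between -0.12 and 0.53 to the other members, and Ccl24 between -0.12 and 0.61. The points share the 3 groups and their library scaling, so a common difference between day 1 and the rest is enough to give a high r. Beyond the family, the gene most like Ccl2 was Cxcr2, a chemokine receptor of neutrophils (r = 0.988). An entry of Itgam, an integrin of myeloid cells, was among the 3 most like Ccl9 (ENSMUSG00000108596, r = 0.976). The symbol has several gene entries, and the macrophage markers below use another of them (ENSMUSG00000030786). The genes most like Ccl7 after Ccl2 were Sp3 (0.984) and Fbxl5 (0.977), and those most like Ccl6 after Ccl9 were Pola1 (0.984) and Samsn1 (0.976). Ccl12 was most like A230046K03Rik (0.981), Tbc1d31 (0.975) and Pnp (0.969), and Ccl3 was most like Ddi2 (0.978), Lyn (0.971) and Htt (0.969). For Ccl4 the genes were Gm13822 (0.986), 4930430E12Rik (0.969) and Ccl3 (0.962), and for Ccl8 they were Cnp (0.960), Pitpnm1 (0.958) and Naaa (0.944). Ccl5 was most like Flt3l (0.942), 6530409C15Rik (0.917) and 9330159M07Rik (0.908), and Ccl24 was most like Dtymk (0.935), Trappc1 (0.909) and Hist1h2be (0.887).

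None of the other CC chemokines tested was called. Of 14 listed, 13 were in the file and 4 reached a mean of 1 FPKM (Ccl11, Ccl19, Ccl21a and Ccl25), and limma called 0 of those 4 in any comparison. At an unadjusted p under 0.05, 1 was higher at day 1 than in sham hearts, 1 was higher and 1 lower at day 7 than at day 1, and 0 differed between day 7 and sham. Ccl21a, a CCR7 ligand of lymph vessels, was at 47.4, 103 and 62.6 FPKM at day 7, at 46.4, 38.8 and 25.7 FPKM at day 1, and at 49.5, 27.2 and 46.3 FPKM in sham hearts. Its near-identical copies were listed at 0, so the level of this copy alone is uncertain. Day 7 against day 1 gave 0.89 with an adjusted p of 0.157. Ccl19, the other CCR7 ligand, was at 0.273, 0.799 and 0.424 FPKM at day 7, at 3.01, 3.81 and 0.424 FPKM at day 1, and at 0.809, 0.295 and 0.37 FPKM in sham hearts, so that 2 of 3 day 1 libraries were high (1.03 against sham, adjusted p = 0.0915). It was called without day 1 replicate 3, at 1.57 (adjusted p = 0.00559). Ccl11 (eotaxin-1), which lies between Ccl7 and Ccl12, was at 0.333, 4.98 and 1.59 FPKM at day 7, at 3.42, 4.38 and 3.27 FPKM at day 1, and at 6.08, 0.5 and 1.92 FPKM in sham hearts. Its groups overlapped in every comparison. Ccl25 was at 1.15, 20.6 and 1.02 FPKM at day 7, so that replicate 2 alone was high. It had 0.984, 2.53 and 1.54 FPKM at day 1, and 0.577, 1.05 and 1.05 FPKM in sham hearts.

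Ccr1 and Ccr2, receptors of several called members, were also highest at day 1. Of 10 CC chemokine receptor genes examined, 4 were tested, and 2 rose at day 1 against sham: Ccr1 and Ccr2. Ccr2, the receptor of Ccl2, Ccl7 and Ccl12 on monocytes, was at 12.9, 14.6 and 7.35 FPKM at day 7, at 41.3, 64.1 and 50 FPKM at day 1, and at 7.48, 2.41 and 16.7 FPKM in sham hearts. Ccr1, which binds Ccl3, Ccl5, Ccl6 and Ccl9, was at 4.49, 4.89 and 2.98 FPKM at day 7, at 13.4, 18.7 and 23.5 FPKM at day 1, and at 3.43, 2.21 and 5.34 FPKM in sham hearts. For both genes the day 1 libraries were above all others. At day 1 against sham the values were 2.70 ± 0.52 for Ccr2 (adjusted p = 0.00877, or 0.0838 without both libraries high in airway markers) and 2.09 ± 0.28 for Ccr1 (adjusted p = 0.00294). At day 7 against day 1, Ccr1 fell by 1.92 ± 0.28 on the log2 scale (adjusted p = 0.013). Ccr2 was at -2.09 ± 0.52 there, just short of a call (adjusted p = 0.0573, between 0.026 and 0.223 over 23 alternatives). The median log2 fold change of the 4 was 1.25 at day 1 against sham, 0.39 at day 7 against sham and -1.17 at day 7 against day 1. Limma called none of them between day 7 and sham (at an unadjusted p under 0.05, 0 higher and 1 lower), where Ccr2 was at 0.61 ± 0.52 (adjusted p = 0.391). Ccr3, the receptor of Ccl24, was too low to be tested, at 0.0461, 0.479 and 0.108 FPKM at day 7, 0.944, 1.3 and 0.402 FPKM at day 1, and 0.0349, 0.00988 and 0.0103 FPKM in sham hearts. It was higher in every day 1 library than in any sham library.

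**Figure D5:**
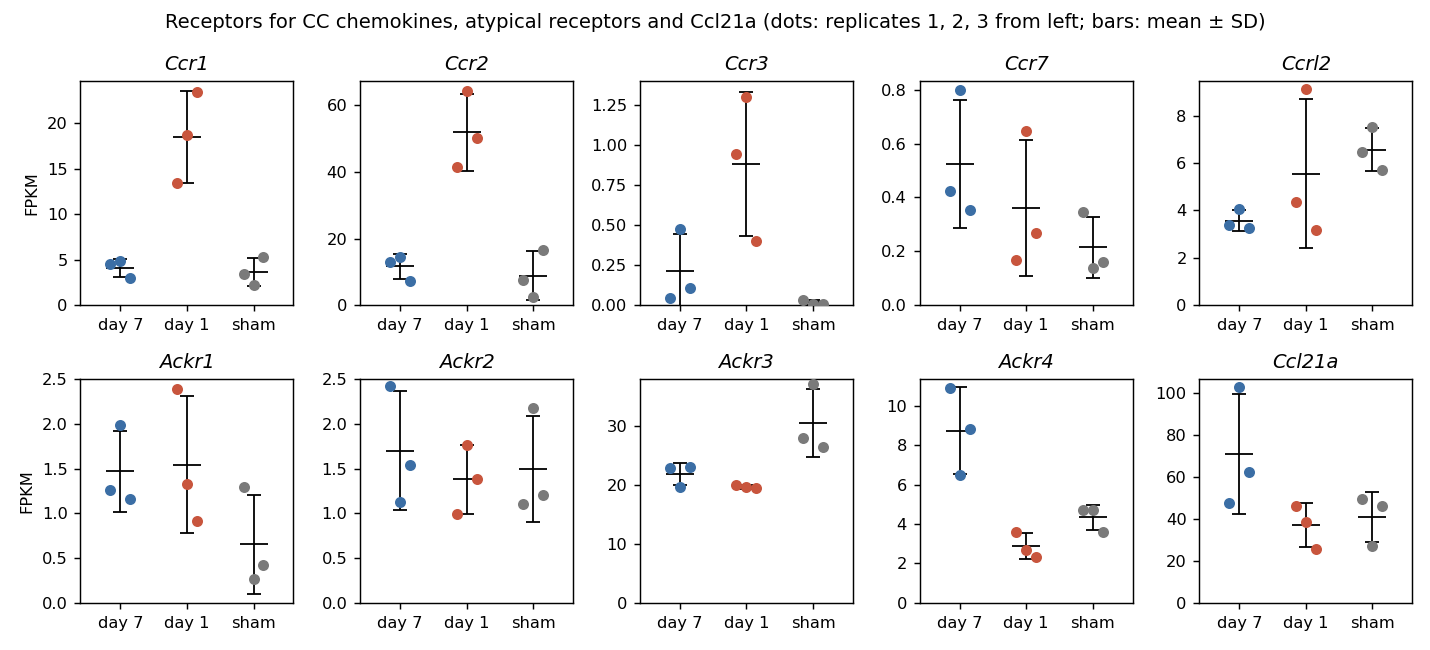
FPKM (linear axis) of receptors for CC chemokines, atypical receptors and the ligand Ccl21a in every library, with a point per library and bars for the mean ± SD of each group (day 7, day 1, sham). Ccr1 and Ccr2 are highest in all day 1 libraries, and Ackr4 is highest in all day 7 libraries.

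Atypical chemokine receptors, which bind chemokines without signalling through G proteins and so remove them, had another pattern. Ackr4, a scavenger of Ccl19, Ccl21 and Ccl25, was at 10.9, 6.48 and 8.8 FPKM at day 7, at 3.61, 2.7 and 2.32 FPKM at day 1, and at 4.7, 4.7 and 3.62 FPKM in sham hearts. It rose at day 7 by 0.85 ± 0.19 against sham (adjusted p = 0.0124) and by 1.31 ± 0.19 against day 1 (adjusted p = 0.012). Ackr3, which binds CXC and not CC chemokines, fell at day 1 by 0.60 ± 0.13 (adjusted p = 0.0116) and at day 7 by 0.45 ± 0.13 (adjusted p = 0.0277, lost in 8 of 23 alternatives), each against sham on the log2 scale. Ackr2, the scavenger of inflammatory CC chemokines, and Ackr1 were not called in any comparison.

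On a list of chemokine receptor signalling genes, which also holds the formyl peptide receptor Fpr2, 11 of 14 tested rose at day 1, with 0 lower by limma or at an unadjusted p under 0.05 (median 0.77). The largest were Vav1 (1.36 ± 0.28, adjusted p = 0.0109), Fpr2 (1.34 ± 0.22, adjusted p = 0.00541), Pik3r5 (1.19 ± 0.24, adjusted p = 0.0105) and Dock2 (1.15 ± 0.28, adjusted p = 0.0187). Vav1 and Dock2 switch on small GTPases in moving white blood cells, and Pik3r5 is a subunit of PI3-kinase gamma. At day 7, 5 of 14 were higher than sham and 1, Fpr2, was lower than at day 1 (-1.66 ± 0.22, adjusted p = 0.00981). Over all genes, 13.4% were called higher and 14.7% lower at day 1 against sham, and 15.7% and 17.3% at day 7 against sham. At day 7 against day 1 these shares were 2.71% and 2.14%. They stand beside the counts of this list and of the lists that follow.

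Among NF-kB genes and inflammatory inducers of chemokines, 8 of 15 tested rose and 1 fell at day 1 against sham (median 0.42). Il6 was at 5.07, 2.16 and 1.22 FPKM at day 7, at 3.07, 4.5 and 16.8 FPKM at day 1, and at 0.29, 0.607 and 0.311 FPKM in sham hearts, and its day 1 value against sham was 2.40 ± 0.54 (adjusted p = 0.0141). Il1b, a cytokine that induces Ccl2, rose by 1.84 ± 0.33 (adjusted p = 0.00718). Bcl3, a nuclear partner of NF-kB, rose by 1.38 ± 0.21 (adjusted p = 0.0043) and Myd88, an adaptor of interleukin-1 and Toll-like receptors, by 0.91 ± 0.13 (adjusted p = 0.00342). At day 7 against day 1, Bcl3 (-0.97, adjusted p = 0.0397), Cebpb (-0.74, adjusted p = 0.0328) and Myd88 (-0.71, adjusted p = 0.0232) were the 3 that fell, with 0 called higher and 1 higher at an unadjusted p under 0.05. Of 23 alternatives, 13 lost the call of Bcl3, 10 that of Cebpb and 6 that of Myd88. Against sham, 3 were higher and 1 lower at day 7, where 15.7% of all genes were called higher and 17.3% lower.

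Type 2 and alternative activation genes are the setting in which Ccl24 is known as a macrophage product. Of 11 tested, 4 rose and 1 fell at day 1 against sham (median 0.50). Of all genes, 13.4% were called higher and 14.7% lower in that comparison. Arg1 was at 3.25, 19.1 and 7.53 FPKM at day 7, at 21.8, 50.3 and 83.7 FPKM at day 1, and at 0.341, 0.0243 and 0.504 FPKM in sham hearts (5.18 ± 0.59 at day 1 against sham, adjusted p = 0.00208). Chil3 and Il4ra rose by 2.76 ± 0.59 (adjusted p = 0.0122) and 1.41 ± 0.24 (adjusted p = 0.00559), while Mgl2, a lectin of alternatively activated macrophages, fell by 1.05 ± 0.29 on the log2 scale (adjusted p = 0.0297, lost in 8 of 22 alternatives with values up to 0.216). Chil3 (-2.72, adjusted p = 0.0395) and Il4ra (-1.03, adjusted p = 0.0452) were then lower at day 7 than at day 1, calls that 13 of 23 alternatives lost for each gene, with adjusted p-values up to 0.162 and 0.189.

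Neutrophil and monocyte markers were higher at day 1 as well. All 8 tested neutrophil markers rose at day 1 (median 2.04), and their summed level was 54.1, 103 and 39.3 FPKM at day 7, 304, 521 and 548 FPKM at day 1, and 72.6, 56.8 and 117 FPKM in sham hearts. The largest rises were of Lcn2 (3.57 ± 0.69, adjusted p = 0.00873), Cxcr2 (2.39 ± 0.21, adjusted p = 0.00103), Csf3r (2.33 ± 0.27, adjusted p = 0.00213) and Retnlg (2.23 ± 0.55, adjusted p = 0.019). None of the 8 was called between day 7 and sham with limma, or had an unadjusted p under 0.05, and 5 were lower at day 7 than at day 1, such as Cxcr2 (-2.40, adjusted p = 0.00186). Monocyte and macrophage markers rose in 8 of 12 at day 1 (median 1.13), led by Plac8 (3.70 ± 0.77, adjusted p = 0.0108), with Fcgr1 at 2.42 ± 0.34 (adjusted p = 0.00346) and Cd68 at 1.83 ± 0.36 (adjusted p = 0.00895).

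The summed level of the monocyte and macrophage markers at day 7 lay above every sham library and overlapped that of day 1. They summed to 1001, 1141 and 872 FPKM at day 7, 796, 1425 and 972 FPKM at day 1, and 589.9, 404 and 711 FPKM in sham hearts. Lyz2 was the largest part of each sum, with 741, 855 and 654 FPKM at day 7. It had 349, 600.0 and 600.5 FPKM at day 1, and 399, 259.5 and 481 FPKM in sham hearts. The place of day 7 in the sums therefore depends on Lyz2 and did not hold for all other markers. At day 7, Plac8, Ccr2 and Fcgr1 overlapped sham and lay below every day 1 library. Cd68 lay above sham and below day 1. Ms4a7 lay above sham and overlapped day 1, and Csf1r lay above both other groups. Of the 12 markers, 5 were called higher at day 7 than in sham hearts (median of the 12, 0.67). Ms4a7 was at 2.20 ± 0.43 (adjusted p = 0.00906), Cd68 at 1.09 ± 0.36 (adjusted p = 0.045, lost in 13 of 23 alternatives), Lyz2 at 1.02 ± 0.28 (adjusted p = 0.0253, lost in 5 of 23) and Csf1r at 0.82 ± 0.20 (adjusted p = 0.0176). Ly6c2, a marker of inflammatory monocytes that was not called, was at 44.9, 61 and 53 FPKM at day 7, at 116, 251 and 87.2 FPKM at day 1, and at 88.4, 81.8 and 75.4 FPKM in sham hearts, with every day 7 library below every sham library; it was chosen after its values were seen. Of 12, 1 was lower at day 7 than at day 1, the Fc receptor Fcgr1 (-2.30, adjusted p = 0.0142). Resident macrophage markers were higher in 1 of 8 at day 7 (15.7% of all genes) and 3 of 8 at day 1 (13.4% of all genes), both against sham. In the comparison of day 7 with day 1 limma called none of them (1 higher and 1 lower at an unadjusted p under 0.05). Of the 22 genes outside the family named here as called at day 1 against sham, 15 were no longer called without both libraries high in airway markers. The other 7 were Ccr1, Fpr2, Myd88, Arg1, Cxcr2, Csf3r and Fcgr1. Over all genes, calls in that comparison went from 1817 higher and 1993 lower to 256 and 146. Whether the chemokine levels followed the number of neutrophils, monocytes or macrophages was not tested.

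Eosinophil markers, of the cells that Ccl24 attracts, and mast cell markers together summed to 6.21, 21.4 and 12.3 FPKM at day 7, 12.5, 12.2 and 7.3 FPKM at day 1, and 8.13, 4.86 and 4.49 FPKM in sham hearts. The 5 genes tested, Cma1, Cpa3, Mcpt4, Tpsb2 and Kit, are mast cell genes, and of these Kit was called, higher at day 7 than in sham hearts. The eosinophil genes Epx, Prg2, Siglecf, Ear6 and Il5ra were all too low to be tested, and Epx was listed at 0 in 6 of 9 libraries. Siglecf was at 0.108, 0.325 and 0.109 FPKM at day 7, at 0.55, 0.991 and 0.97 FPKM at day 1, and at 0.0465, 0.0793 and 0.188 FPKM in sham hearts, with every day 1 library above the rest. T and natural killer cell markers were called in 0 of 9 in each comparison with limma, and 0 had an unadjusted p under 0.05.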

How the data were processed

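The 9 bulk RNA sequencing libraries of mouse hearts were grouped by the sample labels, 3 a group. TRIzol extraction of total RNA and the VAHTS Universal V6 library kit are given in the labels' protocols. FastQC 0.11.9, HISAT2 2.1.0, HTSeq 0.11.2 and the build GRCm39 are named in the submitters' processing notes. No source used here states the annotation release or the use of strand. The values are FPKM for 55361 transcript entries, normalised to length and library size by the authors before they were deposited. Of the positive values, 11.8% were under 1e-06, which whole reads, as HTSeq counts them, would not be likely to give. The step that made such values is not stated, and the depth behind the values could not be recovered.

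FPKM were summed over the transcripts of each gene (25468 genes). Genes with a mean of 1 FPKM or more over the 9 libraries were tested (13514), and all 10 members passed. The test was limma 3.58.1 (R 4.3.3) on log2(FPKM + 1), with a variance trend and 1 mean per group over all 9 libraries (8.69 degrees of freedom in all, prior included). P-values are two-sided and adjusted over all genes tested with the Benjamini-Hochberg method; adjusted values under 0.05 were called. Because of the added 1 FPKM, fold changes of low genes are understated. The sign ± gives the SE after a fold change and the SD after a level or share. The smallest two-sided p that exact permutation of 3 against 3 libraries allows is 0.1, so none is given. Separate animals are not named for the libraries of a group, so p-values measure only the spread between these libraries, part of which may be technical. In simulated data for day 1 against sham on the 13514 genes, 80.4% of genes changed by a log2 of 1 and 93.2% of those changed by 2 were recovered. The simulation drew each gene on its own, so no library differed in many genes at once, unlike these data. These shares are means over all genes. They do not give the recovery of members with a wide spread, such as Ccl8 (SE 0.80) and Ccl5 (SE 0.47).

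The members and the gene lists were chosen with earlier results of these data known. All members were named. Of each list, up to 4 called genes a comparison could be named, the largest fold change first, and also receptors and other CC ligands that were not called, and for each member the 3 genes with the highest r. A receptor gene and a gene among those most like Ccl9 are not reported here. Listed genes with no match by symbol were Ccl21d, Grk2, Cebpd and Trac. The alternatives were a pseudocount of 0.1, testing with no filter or at a mean of at least 5 FPKM, scaling by quantiles, median ratios or a common total (TPM, also without mitochondrially encoded genes), limma with no trend or with robust estimation, fits of the 2 compared groups alone, a block for the replicate number, array weights, the most expressed transcript of a gene, and leaving out libraries.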

Additional observations from a re-analysis of the deposited data

Results flagged for a closer look

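In 6 members the difference between day 7 and day 1 was itself past the threshold of the test, so that the effects of infarction against sham differed between the times. The log2 fold changes at day 7 against day 1 were -2.90 for Ccl2, -3.21 for Ccl7 and -2.61 for Ccl12, the CCR2 ligands, and -1.63 for Ccl9, -1.43 for Ccl4 and -1.38 for Ccl3. In each of these 6 genes all day 7 libraries were below all day 1 libraries. The calls of Ccl3 and Ccl4 were lost in 12 of 22 alternatives and that of Ccl9 in 12 of 23, and with day 7 replicate 3, day 1 replicate 2, day 1 replicate 3 or sham replicate 1 left out, each alone, only Ccl2, Ccl7 and Ccl12 were called. Those fits called 62 to 244 of all genes lower, against 289 with all libraries. A single library far from the rest of its group was looked for only in groups of 4 or more, and there are none here.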

How the results depend on the processing

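Of 23 alternatives, all kept the calls of Ccl2, Ccl7 and Ccl12 between day 1 and sham and between day 7 and day 1. The count of members higher at day 1 than in sham hearts was 7, against 3 without sham replicate 1 and day 1 replicate 2 together, and 7 without any single library. Of all genes 1817 were called higher there, against 256 without those libraries. The count of members lower at day 7 than at day 1 was 6, against 3 with no filter, with TPM, with only the 2 groups compared, with the replicate block and without both of those libraries, and 3 to 5 without a single library. It was 3 without day 7 replicate 3, day 1 replicate 2, day 1 replicate 3 or sham replicate 1. Of all genes, 289 were called lower in the main fit. The first 5 settings called 250, 72, 88, 93 and 26 lower, and the single libraries named, left out in turn, gave 89, 62, 244 and 150. Whether replicate numbers pair the libraries is not stated. Deviations from the group means correlated from -0.37 to 0.27 for the same number and from -0.53 to 0.40 for different ones. With 3 libraries a group, these values cannot exclude a pairing. Between day 7 and sham, 0 members were higher, against 1 with TPM (Ccl24) and 0 to 1 without a single library. There 1 was lower, against 0 with TPM and 0 with TPM without mitochondrially encoded genes, and 0 to 1 without a single library. With TPM the median of all genes was 0.23 at day 1 against sham, 0.30 at day 7 against sham and 0.06 at day 7 against day 1, and the higher share of all calls was 80.3% instead of 47.7% at day 1 and 87.8% instead of 47.6% at day 7, both against sham. Values that were not called changed sign as follows. Ccl5 at day 1 against sham was 0.16 with TPM, 0.10 with TPM without mitochondrially encoded genes, 0.27 with array weights, and between -0.64 and 0.44 without a single library. At day 7 against sham it was 0.17 and 0.05 under the same 2 scalings and between -0.37 and 0.00 without a single library, and at day 7 against day 1 it was 0.01 with TPM, 0.49 without both libraries high in airway genes and between -0.59 and 0.49 without a single library. Ccl4 at day 7 against sham was -0.14 with quantile normalisation, -0.10 with array weights and between -0.18 and 0.29 without a single library. Ccl24 at day 7 against day 1 was -0.03 without both libraries and between -0.15 and 0.44 without 1. Ccr2 at day 7 against sham was between -0.01 and 1.18 without a single library, and the log2 ratio of the summed members there was between -0.07 and 0.70. The causes were not tested. A minimum mean of 5 FPKM left out Ccl3, Ccl4 and Ccl24, so it gives no value for them. Depth is unknown, so how far counting error limits the low genes cannot be given.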
